A study of Homo sapiens with 30 samples.

Results

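The genes of the carnitine shuttle and of long-chain fatty acid oxidation were followed in cultured human acute myeloid leukemia (AML) lines after deletion of MPC1 or overexpression of miR-1. The 10 members are listed by their role: CPT1A, CPT2 and SLC25A20 of the shuttle, the acyl-CoA dehydrogenases ACADVL and ACADM, the subunits HADHA and HADHB of the mitochondrial trifunctional protein, and ETFA, ETFB and ETFDH, which carry the electrons away. All 10 passed the filter on low counts in both count tables, among 14490 genes tested in the table of the MPC1 knockout and 17542 in the table of miR-1 overexpression. With MPC1 deleted, CPT1A measured 72.7% and 71.1% of the control level in MV4-11 and THP-1 cells, with no change detected in Molm-14 cells. CPT1A passed the test in 12 of 12 alternative analyses in MV4-11 cells but in 8 of 12 in THP-1 cells. No other member passed the main test in any line. Under overexpression of miR-1 none of the 10 passed the test. Between MV4-11 and Molm-14 cells carrying an empty vector 9 of 10 differed in each table, as did 61.7% and 64.8% of all genes tested, and CPT1A in MV4-11 cells was 314% of its Molm-14 level in the knockout table.

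Long-chain fatty acids cannot cross the inner mitochondrial membrane as acyl-CoA. CPT1A, on the outer membrane, moves the acyl group onto carnitine and is the rate-limiting and malonyl-CoA-sensitive step, SLC25A20 exchanges the acylcarnitine for free carnitine across the inner membrane, and CPT2 rebuilds the acyl-CoA in the matrix. Beta-oxidation then shortens the chain and delivers acetyl-CoA to the TCA cycle, which is the place where pyruvate brought in by the MPC1-containing carrier would otherwise enter. Oxidation of fatty acids is a known fuel of AML cells.

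miR-1 is a microRNA that pairs through its seed with the 3′ ends of target transcripts. The mature sequence, from RefSeq (GRCh38.p14), is shown because it sets what was searched for in the members. Capitals mark the seed, bases 2 to 8.

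hsa-miR-1-3p: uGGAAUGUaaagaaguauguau

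The 3′ UTR of the canonical transcript of each member was searched for a perfect match to this seed. The letters searched were ACATTCC (bases 2 to 8), ACATTCCA (the same with an A opposite base 1) and CATTCCA (bases 2 to 7 with that A). None of the 10 members held any of them, in UTRs of 42 bases (ETFB) to 2761 bases (CPT1A). Among 19571 canonical 3′ UTRs of protein-coding genes, 19.9% held at least 1 and 4.82% held ACATTCCA. The absence says only that these letters are not in these UTRs.

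RNA was sequenced in 30 libraries in 10 groups of n = 3. In the knockout table, MV4-11 and Molm-14 cells, which carry an internal tandem duplication of FLT3, and THP-1 cells, a monocytic line, received a lentiviral CRISPR/Cas9 vector with a guide against MPC1 (KO) or the empty vector (EV). In the overexpression table, MV4-11 and Molm-14 cells received a lentiviral vector carrying miR-1 with flanking sequence of its host gene (OE) or the matching EV. All cells therefore carried a vector, and the labels do not say whether the 3 replicates were separate infections, clones or cultures, so that the p-values measure the spread between these libraries, which may be technical. The CRISPR vector held 1 guide and a GFP reporter.

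Libraries held 5339360 to 9106478 counts in the knockout table and 15543301 to 20939985 in the overexpression table. Levels are given as CPM, counts scaled to a common library size of 1e+06,, scaled by edgeR's TMM factors. The lowest member count in a library was 69 in the knockout table and 94 in the overexpression table, and the median coefficient of variation of a member within a group was 6.85% and 4.29%. In each line the KO libraries lay below the EV libraries for MPC1, at 44.2% (MV4-11), 48.4% (Molm-14) and 55.8% (THP-1) of the EV mean. Of 11 myeloid markers, 9 to 10 reached 1 CPM in each group, and none of the 3 T cell and 3 fibroblast markers did. Of 3 epithelial markers, 2 reached it in the 8 groups of MV4-11 and Molm-14 cells, where the list summed to at most 35.5 CPM, and 1 of 2 megakaryocyte markers reached it in the 4 MV4-11 groups, at most 10.8 CPM. In 1 group each, 1 of 3 B cell and 1 of 3 erythroid markers did. In bulk RNA, fewer cells that express a gene and less of its RNA per cell cannot be told apart.

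CPT1A (ENSG00000110090, chromosome 11, 68754620 to 68844410, minus strand, GRCh38) was the only member that passed the main test of KO against EV. In MV4-11 cells it measured 281.6, 307.1 and 305.3 CPM in the EV libraries and 205.4, 213.4 and 231.5 CPM in the KO libraries. In THP-1 cells it measured 182.1, 172.2 and 205.1 CPM with EV and 130.0, 122.5 and 144.9 CPM with KO. In these lines every KO library lay below every EV library. In Molm-14 cells the EV libraries held 89.97, 103.4 and 90.99 CPM and the KO libraries 100.3, 96.46 and 92.5 CPM, and the groups overlapped.

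The mean CPT1A level fell from 298.0 ± 14.2 to 217 ± 13.4 CPM (SD, n = 3) in MV4-11 cells, which is 72.7% of EV. On the log2 scale the change was -0.46 (SE 0.0823, 95% interval -0.63 to -0.29, edgeR FDR 0.00171). In THP-1 cells the mean fell from 186 ± 16.9 to 132.5 ± 11.4 CPM, 71.1% of EV, a log2 change of -0.49 (SE 0.0849, interval -0.67 to -0.32, edgeR FDR 0.00947). The Molm-14 means were 94.8 ± 7.49 and 96.4 ± 3.92 CPM, and the log2 change was 0.02 with an interval of -0.16 to 0.20 (edgeR FDR 0.989), so that a fall as large as that in the other lines lay outside its interval.

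Genes with an FDR under 5% over all genes tested are called here. CPT1A was 1 of 10 members called in MV4-11 cells, where 5.41% of all genes tested were called, and 1 of 10 in THP-1 cells, where 0.0897% were. In Molm-14 cells 0 of 10 were called, against 2.4% of all genes, 0 had an unadjusted p under 0.05, and DESeq2 also called 0. With the replicate number as a block the THP-1 change kept its call (FDR 0.00261). Same-numbered THP-1 libraries correlated positively, but KO replicate 1 correlated as much with EV replicate 2, so that pairing is uncertain. In MV4-11 cells the call held in 12 of 12 alternative analyses. In THP-1 cells it held in 8 of 12: it was lost when only the THP-1 libraries were fitted (FDR 0.129), without EV replicate 3 (0.113), without KO replicate 1 (0.112) and without KO replicate 2 (0.208).

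The contrast between lines was tested directly. The KO effect on CPT1A in MV4-11 cells differed from that in Molm-14 cells by -0.48 on the log2 scale (SE 0.12, edgeR FDR 0.0369), and the effect in Molm-14 cells differed from that in THP-1 cells by 0.52 (SE 0.122, edgeR FDR 0.0355). These contrasts share the Molm-14 libraries. MV4-11 and THP-1 cells differed by 0.03, with an interval of -0.21 to 0.28. CPT1A was the 1 member of 10 called in each of the first 2 contrasts, where 1.48% and 0.766% of all genes were called, and 0 of 10 were called in the last, where 0.193% were (0 members at an unadjusted p under 0.05, and 0 called by DESeq2). The direction was kept under every alternative, but the calls were held in 9 of 18 and 7 of 18 of them, with FDR up to 0.118 and 0.151, and in 4 and 3 of 12 when 1 library was dropped.

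**Figure D1:**
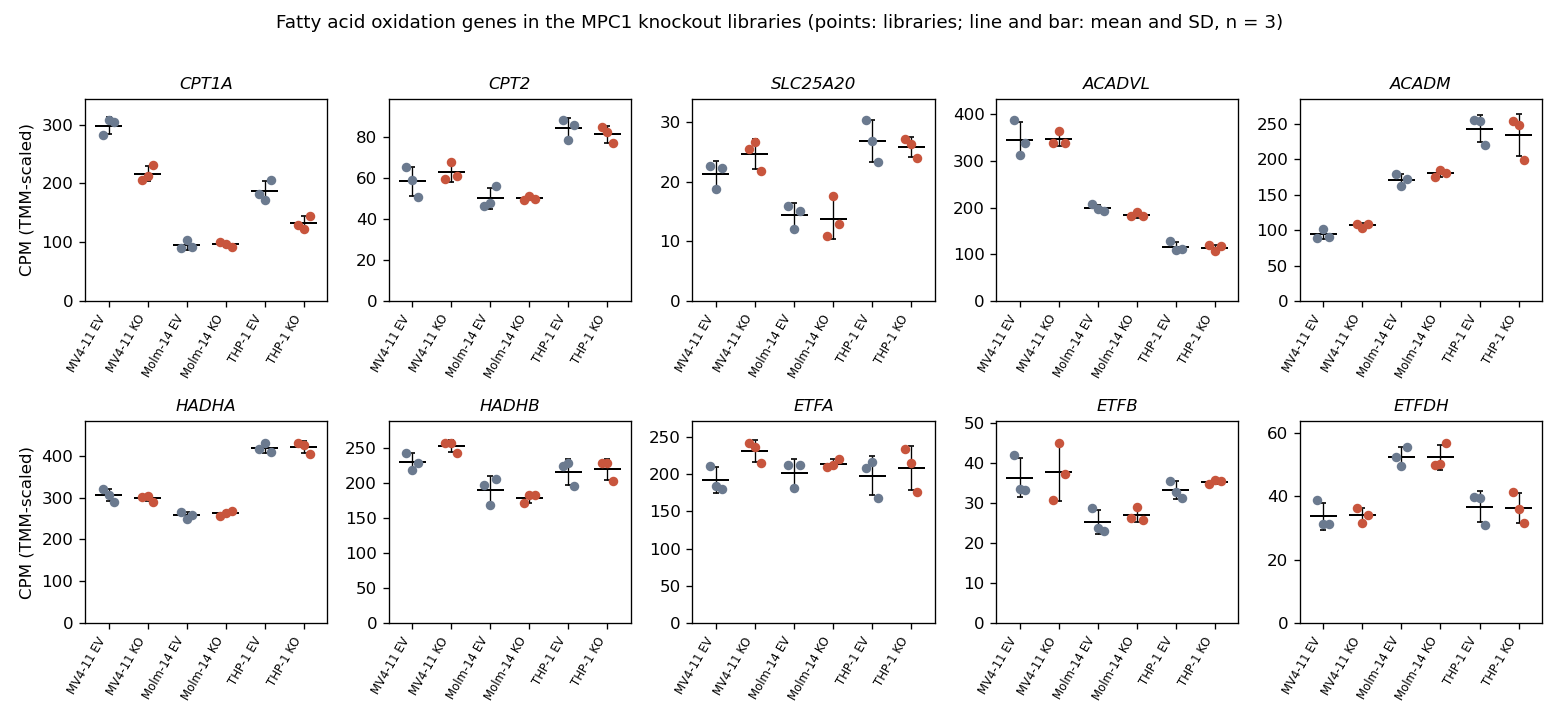
Each panel plots 1 gene, with CPM (TMM-scaled) on a linear axis from 0 and the 6 groups of the knockout table along the x axis. Points are libraries, lines and bars the mean and SD of 3, grey for EV and red for KO. CPT1A shows KO libraries below EV libraries in MV4-11 (205.4 to 231.5 against 281.6 to 307.1 CPM) and THP-1 cells, and overlapping groups in Molm-14 cells.

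Other features of the libraries moved with the KO in MV4-11 cells. Transcripts of the mitochondrial genome made up 0.14% to 0.202% of the KO libraries and 0.211% to 0.452% of the EV libraries, and 9 interferon-stimulated genes summed to 204.1 to 214.8 CPM against 190.2 to 197.2 CPM. In THP-1 cells the groups overlapped, at 0.198% to 0.298% against 0.2% to 0.351% and at 338.3 to 396.3 against 345.6 to 405.2 CPM, but both values were lower with KO in 3 of 3 same-numbered pairs. The myeloid gene LYZ was higher with KO in 3 of 3 of these pairs, at 865.9 to 996.9 against 673.5 to 867.1 CPM. Their part in the CPT1A result was not tested.

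Sequence upstream of the RefSeq start site of CPT1A is shown because CPT1A was the member that moved. RefSeq (GRCh38.p14) held promoter windows, from 250 bases before to 50 after the start, for 9 of the 10 members, and none for ETFDH. The outermost annotated exon of CPT1A reaches base 68844410, beyond this start, so the bases next to the start are not shown. Which start site the cells used was not tested. Those 117 bases of the CPT1A window that lie outside annotated exons, on the minus strand at chr11:68844411-68844527, read 5′ to 3′ as follows. No base is in capitals because no motif searched was matched.

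CPT1A upstream: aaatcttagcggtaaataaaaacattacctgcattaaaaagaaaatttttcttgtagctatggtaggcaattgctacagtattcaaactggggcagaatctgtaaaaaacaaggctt

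On both strands of each whole window, 6 motifs were searched: CACGTG (E-box), GCGCATGC (NRF1), TCAAGGTCA (ERR), TGACGTCA (CRE), GGGCGG (GC box) and CCAAT. The GC box, found in 45% of 35116 promoters, was in at least 1 window of the other 8 members that had a window. The CPT1A window at this RefSeq start held no match to any motif. CCAAT, found in 34.6% of promoters, was in windows of ETFA and ETFB. CACGTG, GCGCATGC, TCAAGGTCA and TGACGTCA, found in 7.26%, 3.05%, 0.353% and 1.85% of promoters, were in none of the members' windows. A match is a description of letters and not a binding site, and nothing follows from its absence.

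The other 2 genes of the shuttle did not pass the test in any line. CPT2 (chromosome 1, 53196792 to 53214197, plus strand), the matrix transferase, measured 65.3, 59.2 and 50.9 CPM with EV and 59.5, 68.0 and 61.2 CPM with KO in MV4-11 cells, a log2 change of 0.10 (interval -0.10 to 0.30). In Molm-14 and THP-1 cells its log2 changes were 0.00 and -0.05. SLC25A20 (chromosome 3, 48856926 to 48898904, minus strand), the carnitine-acylcarnitine carrier, was the least abundant in CPM and the least precise: its changes were 0.21, -0.03 and -0.06 in MV4-11, Molm-14 and THP-1 cells, with an interval of -0.09 to 0.51 in MV4-11 cells. The ratio of CPT1A to CPT2 CPM was 5.16 ± 0.846 (SD, n = 3) with EV and 3.46 ± 0.323 with KO in MV4-11 cells, and 2.21 ± 0.16 and 1.63 ± 0.218 in THP-1 cells.

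The acyl-CoA dehydrogenases open each round of oxidation, ACADVL on very long chains and ACADM on medium chains. ACADVL (chromosome 17, 7217125 to 7225266, plus strand) changed by 0.00 in MV4-11 cells, by -0.11 in Molm-14 cells (interval -0.28 to 0.06) and by -0.02 in THP-1 cells, all on the log2 scale. Its Molm-14 KO libraries, at 181, 191 and 181 CPM, lay below its EV libraries, at 207, 197.5 and 193 CPM, as did 1 of 10 members in that line, where the groups of 16.4% of all genes did not overlap. ACADM (chromosome 1, 75724431 to 75787575, plus strand) measured 89.5, 101.4 and 90.7 CPM with EV and 108.7, 102.8 and 108.4 CPM with KO in MV4-11 cells. Its groups did not overlap, and its log2 change of 0.18 did not pass the test (edgeR FDR 0.225).

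HADHA and HADHB encode the alpha and beta subunits of the trifunctional protein, which runs the last 3 steps of the cycle on long chains. They lie head to head on chromosome 2 (HADHA 26190635 to 26244672, minus strand; HADHB 26243170 to 26290465, plus strand), with 306 bases between their RefSeq start sites. HADHA changed by -0.03, 0.03 and 0.01 on the log2 scale in MV4-11, Molm-14 and THP-1 cells, within intervals from -0.17 to 0.17, and was the member with the smallest standard errors. HADHB changed by 0.13, -0.09 and 0.02. The ratio of HADHA to HADHB CPM was 1.33 ± 0.0679 with EV and 1.18 ± 0.00954 with KO in MV4-11 cells, where the groups did not overlap. A two-sided exact permutation test gave p = 0.1, the smallest that 3 against 3 libraries can give. In Molm-14 and THP-1 cells the ratios overlapped between KO and EV (exact p = 0.3 and 0.8).

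Electrons from the dehydrogenases pass to ETF, a dimer of ETFA and ETFB, and from there through ETFDH to ubiquinone. ETFA (chromosome 15, 76188555 to 76311730, minus strand) measured 211.4, 183.5 and 179.8 CPM with EV and 242.1, 236.1 and 214.3 CPM with KO in MV4-11 cells. Every KO library was higher, and the log2 change of 0.27 (SE 0.101) did not pass the test (edgeR FDR 0.116). It passed without EV replicate 1 (FDR 0.0422) and with the replicate number as a block (FDR 0.0162), although the numbers did not pair the MV4-11 libraries. In Molm-14 and THP-1 cells ETFA changed by 0.09 and 0.07. ETFB (chromosome 19, 51345169 to 51366388, minus strand) changed by 0.05, 0.11 and 0.09 and ETFDH (chromosome 4, 158671968 to 158710742, plus strand) by 0.01, -0.01 and -0.02 on the log2 scale, in the same order of lines.

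Beside CPT1A, the KO changes of the other 9 members ran from -0.03 to 0.27 in MV4-11 cells, from -0.11 to 0.11 in Molm-14 cells and from -0.06 to 0.09 in THP-1 cells. The median over the 10 members was 0.08, 0.01 and -0.02, against 0.02, 0.00 and 0.00 over all genes tested. The groups of 3 members did not overlap in MV4-11 cells, CPT1A lower and ACADM and ETFA higher, where 24.1% of all genes did not, and those of 1 member in THP-1 cells, where 13.6% did not.

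**Figure D2:**
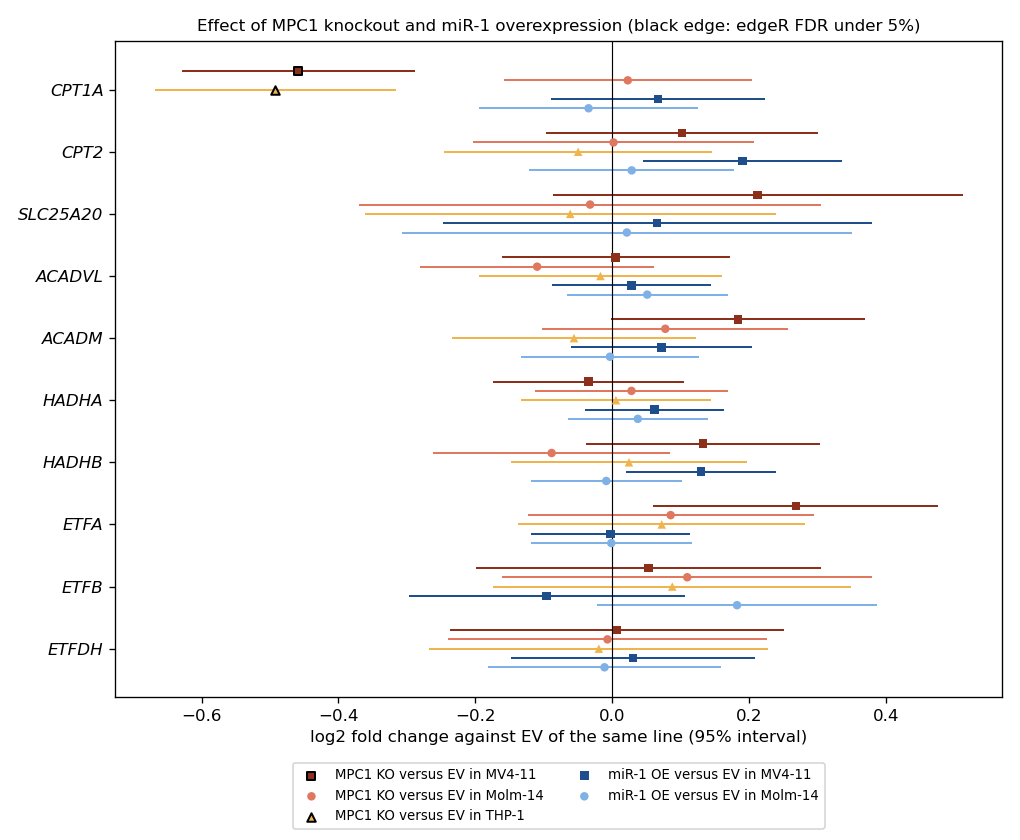
Points show the log2 fold change of each gene against EV of the same line, and bars its 95% interval, for 3 KO and 2 OE comparisons. Black edges mark the changes called by edgeR, which are CPT1A in MV4-11 (-0.46) and THP-1 KO cells (-0.49). The other points lie between -0.11 and 0.27.

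The genes around the pathway were taken from 8 lists with 87 genes, of which 76 were tested in the knockout table and 77 in the overexpression table. None of the genes of the lists for carnitine and fatty acid activation (8 tested), other enzymes of beta-oxidation (17 tested), other ETF-linked enzymes and factors (8 tested) and the propionate branch (6 tested) was called in any KO comparison. The calls lay in peroxisomal oxidation, regulators, PPAR targets, and uptake and lipolysis. In MV4-11 cells 5 genes were higher and 2 lower, in Molm-14 cells 4 higher and 1 lower, and in THP-1 cells 0 of 76 were called, where the shares called over all genes were 5.41%, 2.4% and 0.0897%.

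The peroxisome shortens very long chains before they reach mitochondria. ABCD2, a peroxisomal importer of very long-chain acyl-CoA, measured 17.6, 20.1 and 18.8 CPM with EV and 36.1, 35.2 and 33.9 CPM with KO, a log2 change of 0.90 in MV4-11 cells (SE 0.135, edgeR FDR 2.9e-04). ABCD2 also rose in Molm-14 cells, by 0.91 from 3.7, 4.39 and 5.14 CPM to 8.51, 7.58 and 9.06 CPM (edgeR FDR 0.00684), and its THP-1 groups overlapped. SCP2, a thiolase and sterol carrier, rose by 0.32 in MV4-11 cells. ACAA1, the peroxisomal thiolase, fell in MV4-11 cells from 37.5, 43.2 and 51.3 CPM to 22.2, 31.6 and 33.3 CPM, by 0.59 on the log2 scale (edgeR FDR 0.0101). The calls of SCP2 and ACAA1 were lost in 4 and 2 of 6 fits when 1 library was dropped, and those of ABCD2 in none.

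Among regulators and PPAR targets, PLIN2, a coat protein of lipid droplets, rose in MV4-11 cells from 23.2, 21.0 and 23.4 CPM to 35.3, 36.5 and 33.8 CPM, a log2 change of 0.64 (edgeR FDR 7.0e-04). PRKAA1, a catalytic subunit of AMPK, rose there by 0.37 (edgeR FDR 0.0169). PPARG, a fatty acid-sensing nuclear receptor, rose in Molm-14 cells from 0.336, 0.338 and 0.923 CPM to 2.05, 2.66 and 2.97 CPM, a log2 change of 2.22 (edgeR FDR 5.8e-04), which are 2 to 7 counts against 13 to 20 counts in a library. In THP-1 cells PPARG was far higher and overlapped between EV (17.6 to 25.6 CPM) and KO (19.8 to 22.4 CPM). Leaving out 1 library ended the call of PRKAA1 in 3 of 6 fits, and those of PLIN2 and PPARG in none.

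Of the genes for uptake and lipolysis, CD36, a fatty acid transporter of the plasma membrane, rose in Molm-14 cells from 19.2, 16.5 and 20.04 CPM to 32.4, 30.7 and 31.9 CPM (log2 change 0.77, edgeR FDR 1.4e-04). SLC27A2, a very long-chain acyl-CoA synthetase and transporter, rose by 0.59 in the same cells, and MGLL, the monoacylglycerol lipase, fell by 0.60. PNPLA2, the lipase of the first step of lipolysis, fell by 0.56 in MV4-11 cells. The call of SLC27A2 was lost without EV replicate 2 (FDR 0.0597), that of MGLL in 5 and that of PNPLA2 also in 5 of 6 fits with 1 library dropped. LYZ also moved with the KO in Molm-14 cells, from 285.4 to 346.7 CPM with EV to 624.2 to 627.5 CPM with KO. The sum of the 11 myeloid markers, LYZ among them, was 1310 to 1490 CPM with EV and 1600 to 1740 CPM with KO. That sum is not separate from LYZ and does not show a rise of the other markers. The part of the LYZ change in these changes was not tested.

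No member passed the test under overexpression of miR-1, in either line. CPT1A measured 240.5, 278.6 and 297.9 CPM in MV4-11 OE libraries and 267.0, 281.3 and 231.5 CPM in EV libraries. In Molm-14 cells it measured 132.8, 133.8 and 137.5 CPM with OE and 135.4, 135.1 and 143.4 CPM with EV. The log2 changes were 0.07 (interval -0.09 to 0.22) and -0.03 (interval -0.19 to 0.12), and the groups overlapped in both lines.

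In MV4-11 cells 0 of 10 members were called, where 0.177% of all genes were, and DESeq2 also called 0, with 2 members at an unadjusted p under 0.05. These were CPT2, at 44.5, 48.7 and 48.99 CPM with OE and 40.7, 41.6 and 42.4 CPM with EV (log2 change 0.19, edgeR FDR 0.571), and HADHB, at 136.8, 126.7 and 122.2 CPM with OE and 119.9, 113.7 and 119.0 CPM with EV (0.13, edgeR FDR 0.697). Their groups did not overlap, as those of 9.17% of all genes did not. In Molm-14 cells 0 of 10 were called by edgeR or DESeq2, where 0.0057% of all genes were, and 0 had an unadjusted p under 0.05. No difference of the OE effect between the lines passed the test (0 of 10 called by either tool and 0 at an unadjusted p under 0.05, with 0.0456% of all genes called). None of the 77 tested genes of the surrounding lists was called in either line.

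**Figure D3:**
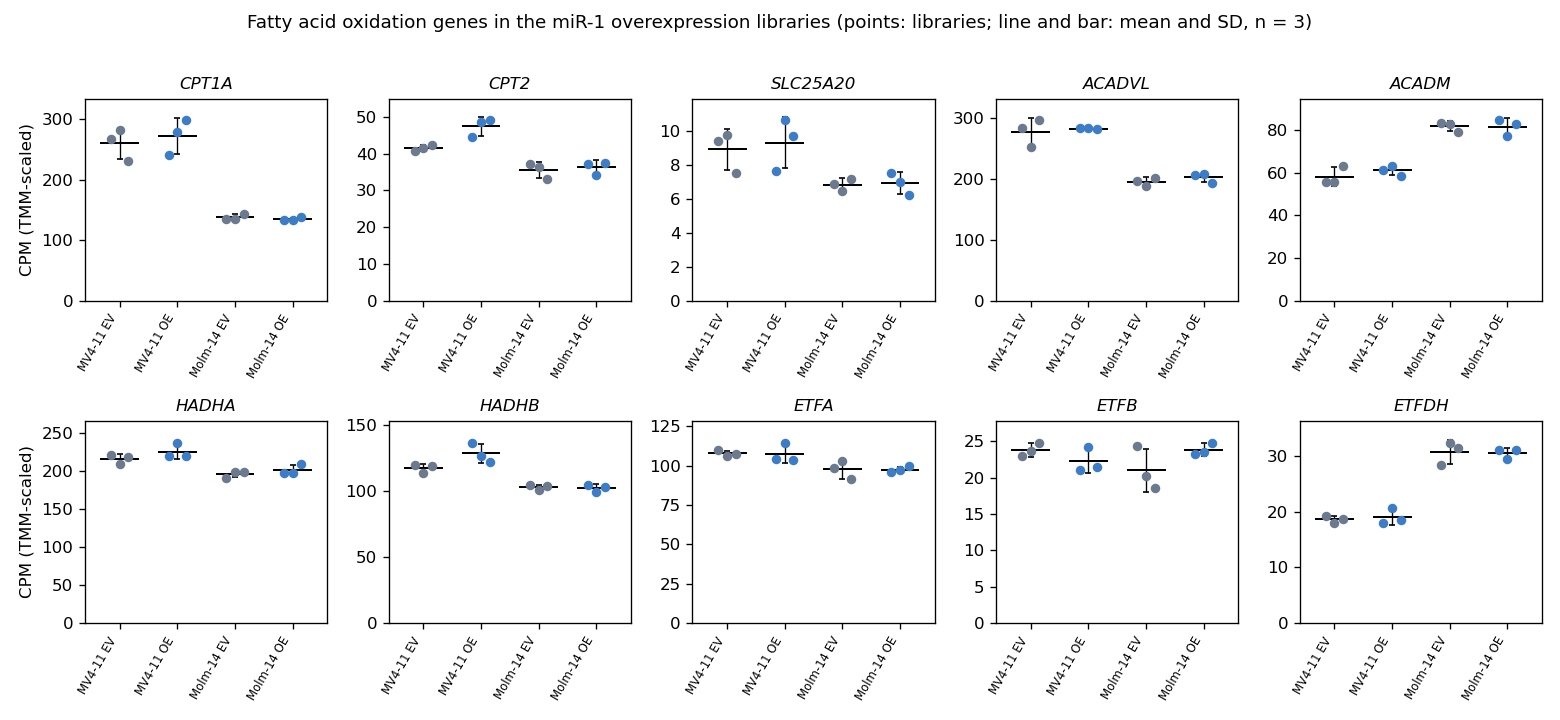
Each panel plots 1 gene, with CPM (TMM-scaled) on a linear axis from 0 and the 4 groups of the overexpression table along the x axis. Points are libraries, lines and bars the mean and SD of 3, grey for EV and blue for OE. OE and EV overlap in each line except for CPT2 and HADHB in MV4-11 cells, while MV4-11 and Molm-14 stand apart for CPT1A, ACADVL, ACADM and ETFDH.

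The MV4-11 libraries of this table were not alike. OE replicate 1 and EV replicate 3 held 547.8 and 181.9 CPM of 9 interferon-stimulated genes, against 115.1 to 122.8 CPM in the other 4. The same libraries had the lowest CPT1A, 240.5 and 231.5 CPM against 267.0 to 297.9 CPM, and the lowest LYZ, 537.8 and 527.9 CPM against 861.5 to 1246 CPM. Without both libraries, 0 of 10 members were called, and the CPT1A change was 0.08 (edgeR FDR 0.702). The part of this state in the members' spread was not tested.

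**Figure D4:**
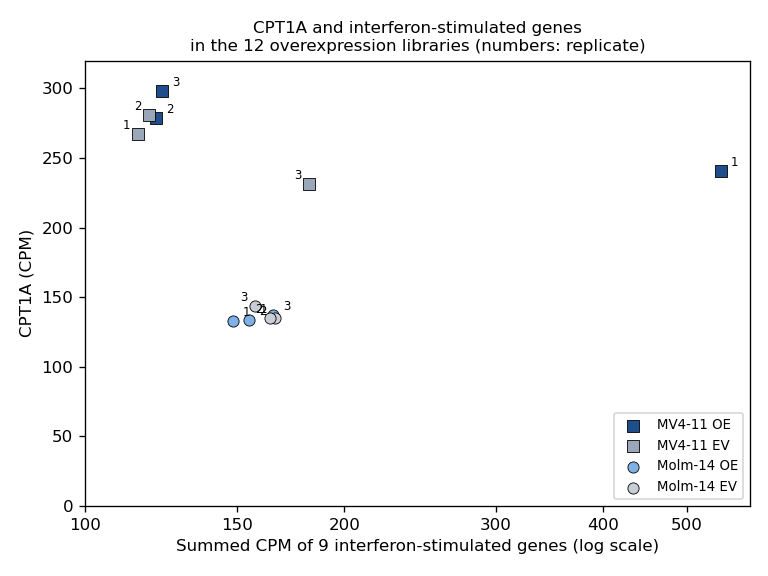
CPT1A CPM (linear axis from 0) is plotted against the summed CPM of 9 interferon-stimulated genes (log axis) for the 12 overexpression libraries, with squares for MV4-11, circles for Molm-14 and replicate numbers beside them. MV4-11 OE replicate 1 (547.8 CPM) and EV replicate 3 (181.9 CPM) lie to the right of and below the other MV4-11 libraries.

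The EV libraries show how the lines differ without either manipulation. In the knockout table, 9 of 10 members differed between MV4-11 and Molm-14 cells, 7 higher and 2 lower in MV4-11, where 61.7% of all genes tested were called. The groups of 8 members did not overlap, nor did those of 63.9% of all genes. Between MV4-11 and THP-1 cells 6 differed (2 higher, 4 lower, against 67.5% of all genes), with 6 not overlapping against 68.1%, and between Molm-14 and THP-1 cells 8 (2 higher, 6 lower, against 69.6% of all genes), with 8 not overlapping against 71.1%. With most genes differing between the lines, these counts are not particular to the pathway. The 3 comparisons share their EV groups.

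CPT1A was highest in MV4-11, then THP-1, then Molm-14 cells, and no 2 of the lines overlapped. MV4-11 EV cells held 314% of the Molm-14 level (log2 difference 1.65, SE 0.0859, edgeR FDR 1.9e-15) and 160% of the THP-1 level (0.68, SE 0.0831, edgeR FDR 5.57e-08). After the loss of MPC1 the order was the same, with 205.4 to 231.5 CPM in MV4-11, 122.5 to 144.9 CPM in THP-1 and 92.5 to 100.3 CPM in Molm-14 cells. The line without a detected change was the one with the lowest CPT1A in both states.

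The 2 dehydrogenases ran in opposite orders. ACADVL measured 386.3, 311.8 and 338.0 CPM in MV4-11, 206.8, 197.5 and 193.2 CPM in Molm-14 and 127.4, 108.4 and 110.5 CPM in THP-1 EV libraries. ACADM measured 89.5, 101.4 and 90.7 CPM in MV4-11, 179.4, 161.6 and 171.4 CPM in Molm-14 and 254.7, 254.0 and 220.7 CPM in THP-1 EV libraries. No 2 of the lines overlapped for either gene. The log2 differences of MV4-11 from THP-1 cells were 1.58 (SE 0.0843, edgeR FDR 2.86e-15) for ACADVL and -1.37 (SE 0.0889, edgeR FDR 1.81e-13) for ACADM. The ratio of ACADVL to ACADM CPM was 3.71 ± 0.621, 1.17 ± 0.0492 and 0.476 ± 0.0426 (SD, n = 3) in MV4-11, Molm-14 and THP-1 cells.

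HADHA was highest in THP-1 cells, at 416.9, 431.2 and 407.9 CPM, against 290.5 to 320.5 CPM in MV4-11 and 248.3 to 264.9 CPM in Molm-14 EV libraries. HADHB did not follow it. It differed between MV4-11 and THP-1 cells by 0.09 (interval -0.08 to 0.26), and between Molm-14 and THP-1 cells by -0.18 (edgeR FDR 0.0527), a difference called under DESeq2 (FDR 0.0102), 3 of the other settings and 2 of the fits that dropped an EV library. The CPT2 difference between MV4-11 and Molm-14 cells (0.22, edgeR FDR 0.0491) and the SLC25A20 difference between MV4-11 and THP-1 cells (-0.34, edgeR FDR 0.0417) lay near the threshold, and lost their calls under 7 and 5 of the alternatives. The ratio of HADHA to HADHB was 1.95 ± 0.126 in THP-1, 1.33 ± 0.0679 in MV4-11 and 1.36 ± 0.106 in Molm-14 EV libraries. THP-1 did not overlap either of the other lines (exact permutation p = 0.1 each, the smallest possible). In the overexpression table the ratio was 1.84 ± 0.00463 in MV4-11 and 1.91 ± 0.0712 in Molm-14 EV libraries, and these overlapped.

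CPT2 and SLC25A20 were also highest in THP-1 cells. CPT2 was 69.2% of the THP-1 level in MV4-11 and 59.4% in Molm-14 cells, and SLC25A20 79.3% and 53.6%, all called by edgeR (FDR at most 0.0417). ETFDH was highest in Molm-14 cells, at 52.3, 49.5 and 55.6 CPM, with log2 differences of -0.64 for MV4-11 minus Molm-14 and 0.51 for Molm-14 minus THP-1, and MV4-11 and THP-1 overlapped. ETFB was lowest in Molm-14 cells, at 28.6, 23.7 and 23.1 CPM, against 31.2 to 41.8 CPM in the other lines. ETFA was the member with the least difference between lines in the knockout table. Its 3 log2 differences were -0.07, -0.05 and 0.03, with intervals from -0.28 to 0.24.

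MV4-11 and Molm-14 EV cells were measured again in the overexpression table, in other libraries and with another EV. There 9 of 10 members differed, 7 higher and 2 lower in MV4-11, where 64.8% of all genes were called, and 9 did not overlap, against 69.8% of all genes. The direction was the same in both tables for 9 of 10 members, and 8 were called in both. CPT1A differed by 0.91 (SE 0.0747, edgeR FDR 7.87e-09) against 1.65 in the knockout table. ACADVL differed by 0.50 against 0.80, ACADM by -0.49 against -0.86, and ETFDH by -0.72 against -0.64. ETFA, the exception in direction, differed by 0.14 (edgeR FDR 0.0277) against -0.07, and ETFB by 0.18 (edgeR FDR 0.109) against 0.54. Whether the size differed between the tables was not tested, because the tables list different numbers of genes and were normalized separately. The libraries also differed in their share of mitochondrial transcripts. It was 0.14% to 0.452% in the knockout table and 2.72% to 4.34% in the overexpression table, and its part was not tested.

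**Figure D5:**
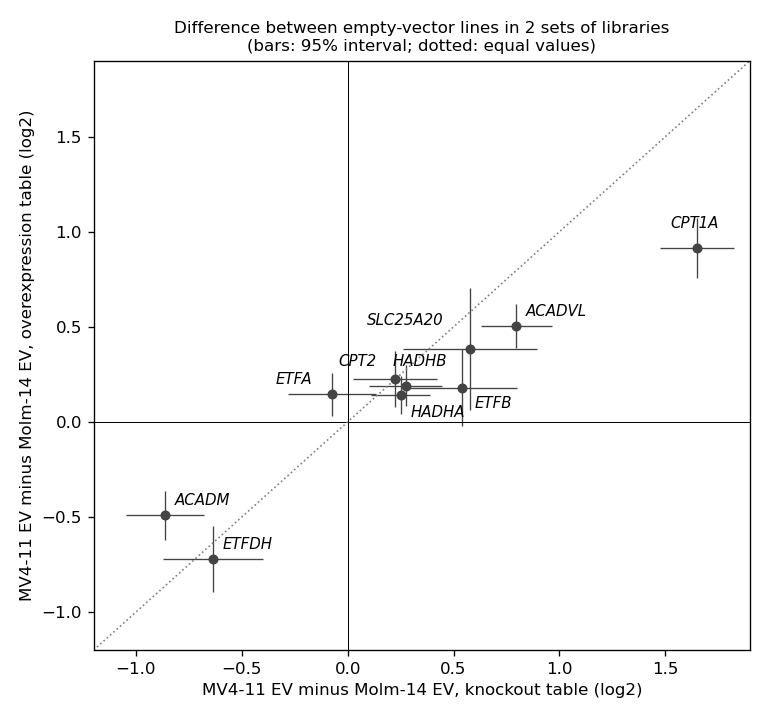
The log2 difference of MV4-11 EV from Molm-14 EV cells in the knockout table (x axis) is plotted against that in the overexpression table (y axis) for the 10 genes, with 95% intervals and a dotted line of equal values. CPT1A lies at 1.65 and 0.91, and ACADM and ETFDH lie below 0 in both.

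Levels of different genes were compared per kilobase of the canonical transcript, within the knockout table. In MV4-11 EV cells ACADVL was highest, at 158.1 ± 17.3 CPM per kilobase (SD, n = 3), followed by HADHB at 115.2 ± 6.21 and HADHA at 103.9 ± 5.1. In Molm-14 EV cells HADHB (95.4 ± 9.69), ACADVL (91.2 ± 3.2), ETFA (88.2 ± 7.79) and HADHA (87.5 ± 2.86) were within their spread of each other. In THP-1 EV cells HADHA led with 142.3 ± 3.99 CPM per kilobase. The inner membrane carrier and ETFDH were at the low end in every EV group, with SLC25A20 at 8.1 ± 1.17 and ETFDH at 16.9 ± 0.987 CPM per kilobase in Molm-14 cells. The order depends on the length used. Per kilobase of all annotated exons, HADHA and not HADHB was highest in Molm-14 cells, and SLC25A20 ranked 6 or 7 of 10.

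Some members share exonic sequence with neighbours, and the sources used here do not say whether reads were counted by strand. ETFDH overlaps PPID on the opposite strand by 1427 bases, ACADM overlaps the pseudogene DLSTP1 by 1354 bases and CPT2 overlaps an antisense lncRNA by 1151 bases, which are 5.98%, 9.83% and 11.4% of their exon length. On the same strand, ETFB overlaps the protein-coding gene ENSG00000269403 by 337 bases (5.19%). ETFDH overlaps the snoRNA U3 by 219 bases (0.918%) and ACADM overlaps RABGGTB by 157 bases (1.14%), also on the same strand. CPT1A, SLC25A20, HADHA, HADHB and ETFA had no exonic overlap with another gene.

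Over the 18 libraries of the knockout table, the genes most like CPT1A by Pearson's r of log2 CPM were MUC19 (0.982), CFLAR (0.974) and PTPN18 (0.973). Those most like ACADVL were TESC (0.996), ARF3 (0.992) and PWWP3A (0.989), and ANXA1 (0.991) and DPYD (0.991) were among those most like HADHA. The libraries fall into 3 cell lines, so these values mainly describe which genes share a member's order of lines.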

How the data were processed

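RNA was measured in 30 libraries. The deposited values were raw counts per Ensembl gene, whole numbers with no normalization, in 1 table for the knockout and 1 for the overexpression libraries. Per the labels and the study's methods, the authors trimmed reads with cutadapt 1.16, removed optical duplicates, aligned to GRCh38 with STAR 2.7.6a and counted with featureCounts 1.6.3, after a stranded total RNA kit with depletion of ribosomal RNA. The tables list 58051 and 60675 genes, so levels were not compared between them. All columns were used.

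Counts were tested with edgeR 4.0.16 (filterByExpr, TMM, robust quasi-likelihood), all libraries of a table in 1 fit, with Benjamini-Hochberg adjustment over all genes and calls at an FDR under 5%. Ratios were compared by two-sided exact permutation tests. Alternatives were DESeq2 1.42.0, RLE factors, library totals, no filter, only the groups compared, a replicate block and leaving out each library. The fit without 2 interferon-high libraries was chosen after seeing the data. Positions and UTRs came from GENCODE 44. The named genes are all 10 members, MPC1 and the called genes of the lists, with the 3 genes most alike. Some of these genes are not reported here. The members and lists were chosen with earlier results of these data known. The fits were tested on simulated counts.

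Replicate pairs differed by more than sampling noise (chi-square per degree of freedom 1.56 to 18.1), and none was merged. Same-numbered libraries correlated positively in THP-1 cells (0.301 to 0.619) and between MV4-11 and THP-1 EV (0.107 to 0.547). They are described as pairs there only, from these correlations and not from the labels. The edgeR tests used the replicate numbers only in the alternative with a replicate block. In THP-1 cells KO replicate 1 correlated as much with EV replicate 2 (0.39) as with EV replicate 1 (0.385). KO replicate 3 stood apart from EV replicates 1 and 2 (-0.366 and -0.512), so the pairing of replicates 1 and 2 is uncertain. A count of 0 allows up to 3 counts, or 0.143 to 0.562 CPM, which covers counting error only.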

Additional observations from a re-analysis of the deposited data

Results flagged for a closer look

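The following effects of MPC1 KO differed between lines by an edgeR test of the difference itself. For CPT1A, the effect in MV4-11 minus that in Molm-14 cells was -0.48 on the log2 scale (edgeR FDR 0.0369), and the effect in Molm-14 minus that in THP-1 cells was 0.52 (edgeR FDR 0.0355). The calls of these differences held in 9 of 18 and 7 of 18 alternatives, with edgeR FDR up to 0.118 and 0.151. In MV4-11 and in THP-1 cells, CPT1A in 3 of 3 KO libraries lay below every EV library. The groups of 24.1% and 13.6% of all genes tested did not overlap in these lines.

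Among the surrounding genes, the effect on ACAA1 in MV4-11 minus Molm-14 cells was -0.85 (edgeR FDR 0.0189), and that on PLIN2 in MV4-11 minus THP-1 cells was 0.75 (edgeR FDR 0.0118). In Molm-14 minus THP-1 cells, the effect on PPARG was 2.27 (edgeR FDR 0.00328), from counts of 2 to 20 in a Molm-14 library, and that on CD36 was 0.88 (edgeR FDR 0.00272).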

How the results depend on the processing

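Over 1840 values of the members under 37 other settings, 1780 kept their side of the threshold. A call was lost in 50 and gained in 10, and 0 called values changed sign. Uncalled values could change sign and still be counted as kept, as that of ACADVL in MV4-11 KO cells did under DESeq2. For MPC1 KO, the members called were 2 with the replicate block in MV4-11 cells (ETFA added to CPT1A) and 0 in THP-1 cells when only the groups compared were fitted. For the difference of the KO effect, 0 were called with library totals in MV4-11 minus Molm-14 and in Molm-14 minus THP-1 cells, and 0 in the latter with only the groups compared. Leaving out 1 library gave 1 to 2 members called in MV4-11, 0 to 0 in Molm-14 and 0 to 1 in THP-1 KO cells, 0 to 0 in both OE comparisons, 0 to 1, 0 to 0 and 0 to 1 for the differences of the KO effect (MV4-11 minus Molm-14, MV4-11 minus THP-1, Molm-14 minus THP-1) and 0 to 0 for that of OE. Between EV lines it gave 7 to 9, 5 to 6 and 8 to 9 in the knockout table and 6 to 9 in the overexpression table. The cause was not tested.

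Over all genes, the number called was 784 in MV4-11 KO cells and 133 to 1474 under the alternatives (1474 with the replicate block), 348 and 183 to 412 in Molm-14, and 13 and 3 to 30 in THP-1. For OE it was 31 and 9 to 123 in MV4-11, and 1 and 1 to 195 in Molm-14 cells. For the differences of effect it was 215 and 105 to 388, 28 and 18 to 80, 111 and 78 to 159, and 8 and 2 to 33, in the order above with OE last. The numbers paired neither the MV4-11 nor the Molm-14 libraries (correlations of -0.576 to 0.235 and -0.263 to 0.32 in the knockout table, -0.712 to 0.0377 and -0.0614 to -0.0271 in the overexpression table), and the block ended no call of a member in a KO or OE comparison. With 3 libraries a group, the members' 95% intervals reach from -0.37 to 0.51 for SLC25A20 under KO, so moderate changes of that gene cannot be told from none.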
